A study of Homo sapiens with 8 samples.

Results

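The 45 genes described here are interferon-stimulated genes (ISGs), chosen by name from the list of genes that cells switch on in response to interferon. For each symbol the deposited table was searched for its transcripts, and the transcript with the highest mean level over the 8 libraries was kept, so that all 45 members had a value, out of 27945 genes in all. A filter on low values (at least 0.5 FPKM in at least 2 libraries) left 39 members among 13789 genes tested. FPKM is a read count divided by transcript length and library size, so that FPKM values of different genes can be compared.

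The study deleted pieces of SE12313, an endothelial super-enhancer, which is a dense cluster of enhancers, and sequenced ribosome-depleted total RNA. All cells were EA.hy926, a human line made by fusing umbilical vein endothelial cells with a lung carcinoma line and grown here in serum-containing medium with no interferon named in the labels. The control group held 2 libraries of EA.hy926 with the control genotype. The ΔE2 group held 3 libraries from clonal lines in which E2, an enhancer inside SE12313, had been cut out with Cas9 protein and paired guide RNAs. The ΔSE12313-b group held 3 libraries from clonal lines that had lost SE12313-b, another stretch of the same super-enhancer, in the same way. The study chose SE12313-b as a negative control because it was inactive in reporter assays, but reported that its deletion changed many of the same genes as that of E2. Each deletion was thus seen in 3 clones, whereas the text does not say whether the RNA controls were clonal, passed through transfection, or came from separate cultures, so that p-values measure the spread between these libraries only and derivation of a clone cannot be told apart from the loss of the enhancer. Both deletions were compared with the same 2 control libraries, and their changes against control are therefore not independent of each other.

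Interferons are secreted proteins that warn cells of virus. Type I interferons bind the receptor chains IFNAR1 and IFNAR2, whose kinases JAK1 and TYK2 phosphorylate STAT proteins, among them STAT2. With IRF9 these form the complex ISGF3, which binds the interferon-stimulated response element (ISRE), a short DNA motif near the start of most ISGs. The products include sensors of viral RNA, enzymes that destroy or block it, membrane proteins that trap virus, and regulators that amplify or end the signal. Endothelial cells line vessels and respond strongly to interferon. None of the 45 genes lies on the chromosome that carries SE12313.

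Depth ranged from 12067557 to 19101148 reads per library, recovered from the steps in the FPKM values, of which 7801434 to 13371559 fell on the genes kept. The share on kept genes was lowest in the controls (8150605 of 12696175 and 7801434 of 12067557 reads). It was higher in ΔE2 (at least 13371559 of 19101148) and highest in ΔSE12313-b (at least 11145480 of 14814164). FPKM divides by all reads, so such a difference can move many genes together. Its part in the calls was not tested beyond the centring given below. Endothelial identity was visible in the adhesion molecule CDH5 (102 and 103 FPKM in the controls) and the receptor TIE1 (55.3 and 56.8), while KDR, a growth factor receptor of vessels, stood at 0.204 and 0.171 FPKM. The 8 endothelial markers examined summed to 208.6 to 209 FPKM in the controls, 198 to 332 in ΔE2 and 188 to 257 in ΔSE12313-b, most of it from CDH5 and TIE1. Single markers changed in opposite directions: PECAM1 (2.17-fold and 4.28-fold) and ERG (2.39-fold and 2.13-fold) were upregulated in ΔE2 and ΔSE12313-b and ESAM in ΔE2 (2.11-fold), while VWF was 3.29-fold and 3.49-fold lower. Of the 5 epithelial markers the keratins carried the sum (232 to 239 FPKM in the controls, 613 to 752 in ΔE2, 541 to 669 in ΔSE12313-b), while CDH1 was at 0 and EPCAM and KRT19 stayed at or below 0.554 FPKM. Among the leukocyte markers CD3E was at 0 in every library, PTPRC and CD14 reached 0.012 and 0.048 FPKM at most, and LYZ, which is not limited to leukocytes, stood at 0.313 and 0.11 FPKM in the controls, 0.693 to 2.67 in ΔE2 and 0.041 to 0.224 in ΔSE12313-b. All 6 markers of cycling cells examined were upregulated in both deletions, with a summed level of 14.8 to 15.8 FPKM in the controls, 270.5 to 366 FPKM in ΔE2 and 297 to 344 FPKM in ΔSE12313-b. In separate assays the paper reported slower proliferation and a smaller share of S-phase cells in clones of both deletions. These RNA levels are therefore not a measure of how fast the clones divided. The part of these marker shifts in the results on ISGs was not tested. In bulk RNA, fewer cells expressing a gene and less RNA per cell cannot be told apart.

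Sequence around the transcript start was examined for the ISRE core GAAANNGAAA, on both strands and counting overlapping matches, from 250 bases before to 50 bases after the start of the kept transcript in GRCh37, the build of the files. The motif was present in 24 of the 45 members (53.3%), against 992 of 27866 windows of all kept transcripts (3.56%). The lines below show it for 6 genes that were upregulated in at least 1 deletion (IFIT1, IFIT2, IFIT3, ISG15, OAS3, SAMD9) and for the 3 downregulated genes that held it (BST2, DDX60, IFI44L), because ISGs with the same element moved in opposite directions. Capitals mark the match, flanked by 10 bases on each side, and each line reads 5′ to 3′ on the strand that carries the motif.
IFIT1: gaaacctaggGAAACCGAAAggggaaagtg
IFIT2: agtgaaactaGAAAGTGAAAttggcaggac
IFIT3: ctcttgagggGAAACTGAAAcagaatctgt
ISG15: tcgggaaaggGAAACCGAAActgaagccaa
OAS3: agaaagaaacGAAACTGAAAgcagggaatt
SAMD9: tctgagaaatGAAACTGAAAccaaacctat
BST2: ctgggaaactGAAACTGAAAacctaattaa
DDX60: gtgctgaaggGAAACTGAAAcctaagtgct
IFI44L: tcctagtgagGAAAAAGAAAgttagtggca
The IFIT1 stretch is at chr10:91152267-91152296 (minus strand), IFIT2 at chr10:91061685-91061714 (minus), IFIT3 at chr10:91092182-91092211 (minus), ISG15 at chr1:948760-948789 (plus), OAS3 at chr12:113376126-113376155 (plus), SAMD9 at chr7:92747409-92747438 (minus), BST2 at chr19:17516544-17516573 (minus), DDX60 at chr4:169239972-169240001 (minus) and IFI44L at chr1:79085959-79085988 (plus). Where a window held more than 1 match, the line shows the one nearest to the start among those wholly before it, and the matches shown begin between 11 bases (IFIT2) and 106 bases (BST2) before the start. A second match, not shown, begins 39 bases before the start in IFIT1, 83 in ISG15 and 112 in BST2. It begins 1 base before the start in IFIT3 and 7 in IFI44L, running across it, and 3 bases after the start in IFIT2 and DDX60 and 30 in OAS3. In IFI44L the whole 30-base stretch is repeated letter for letter around the second match. Among the matches shown, the 10 letters were identical in IFIT1 and ISG15, and identical in IFIT3, OAS3, SAMD9, BST2 and DDX60, of which 3 were upregulated and 2 downregulated, while the second match of DDX60 has the letters shown for IFIT1 and ISG15.

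The ISGs did not move as a block. In ΔE2, 11 of the 39 members tested were upregulated (28.2%, against 11.2% of all tested genes) and 6 were downregulated (15.4%, against 8.36% of all tested genes), which makes 17 in either direction (43.6%, against 19.6%). In ΔSE12313-b, 7 were upregulated (17.9%, against 14.7% of all genes) and 4 were downregulated (10.3%, against 7.83%), which makes 11 in either direction (28.2%, against 22.6%). In ΔSE12313-b the shares of members called were thus close to those of all genes. A gene was called at an adjusted p below 0.05 (limma on log2(FPKM + 0.1) with Benjamini-Hochberg adjustment over all tested genes) and a change of at least 2-fold. These counts used FPKM without further scaling, and the counts with centred libraries are given below.

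By name, OAS1, OAS3, IFIT2, IFIT3, ISG15, USP18 and SAMD9 passed upward in both, and OAS2, OASL, IFIT1 and SAMD9L passed in ΔE2 alone. IRF9, BST2 and IFI44L passed downward in both, IRF7, GBP2 and ISG20 in ΔE2 alone and DDX60 in ΔSE12313-b alone, and no member was called in opposite directions. Counting both called and uncalled members, 23 had a positive and 16 a negative log2 change in ΔE2, and 24 and 15 in ΔSE12313-b. The median log2 change of the members was 0.18 in ΔE2 (0.14 over all tested genes) and 0.34 in ΔSE12313-b (0.27 over all), whereas their median absolute change was 0.88 in ΔE2 (0.51 over all) and 0.70 in ΔSE12313-b (0.57 over all). Regardless of size, 27 members had an adjusted p below 0.05 in ΔE2 and 28 in ΔSE12313-b by limma with Benjamini-Hochberg adjustment (69.2% and 71.8%, against 54.1% and 59.4% of all tested genes). When each library was centred on its median gene, the median change over all genes became -0.02 in both comparisons, and the members split into 9 upregulated and 7 downregulated in ΔE2 and 6 and 6 in ΔSE12313-b.

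**Figure D1:**
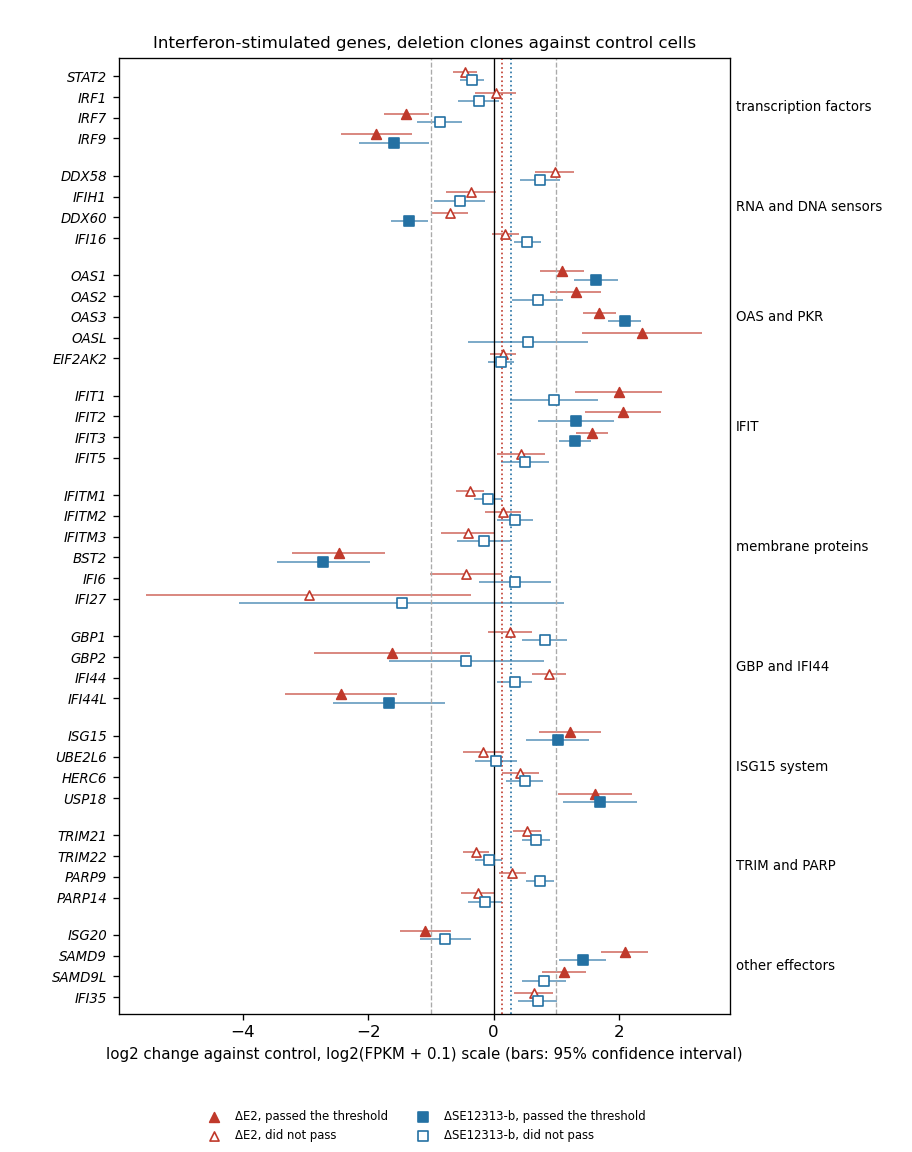
Log2 change of the 39 tested members in ΔE2 (triangles) and ΔSE12313-b (squares) against the 2 control libraries, on the log2(FPKM + 0.1) scale, with genes grouped by role. Bars are 95% confidence intervals, filled symbols passed the threshold (adjusted p below 0.05 and at least 2-fold), dashed lines mark 2-fold and dotted lines the median of all tested genes (0.14 and 0.27). The OAS and IFIT genes lie to the right, IRF7, IRF9, BST2 and IFI44L to the left, and the 4 TRIM and PARP genes within 2-fold of the controls.

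The OAS family, enzymes that sense double-stranded RNA and make oligoadenylates that switch on RNase L, held the most upregulated members in ΔE2, with 4 of the 5 genes of the OAS and PKR group called. In ΔSE12313-b 2 of them were called, as many as in the IFIT and the ISG15 groups. OAS3 (chr12:113376238-113411055) stood at 2.92 and 3.07 FPKM in the controls, 10.2, 8.49 and 11.0 in ΔE2 and 12.9, 13.3 and 12.9 in ΔSE12313-b. Every clone was well above both controls, and the 3 ΔSE12313-b clones were nearly equal. OAS3 was upregulated by 1.69 ± 0.11 (log2, SE) in ΔE2 and 2.09 ± 0.11 in ΔSE12313-b (limma, Benjamini-Hochberg adjusted p = 1.61e-05 and 4.19e-06), the highest log2 change of any member in ΔSE12313-b. OAS1 (chr12:113344582-113355831), the neighbour of OAS3, stood at 6.22 and 5.83 FPKM in the controls, 11.99, 14.7 and 12.4 in ΔE2 and 17.3, 16.9 and 23.1 in ΔSE12313-b. Its groups did not overlap, and ΔSE12313-b was the highest. OAS1 rose by 1.10 ± 0.15 in ΔE2 and by 1.63 ± 0.15 in ΔSE12313-b (limma, Benjamini-Hochberg adjusted p = 0.000622 and 6.38e-05). The ΔE2 call of OAS1 was close to 2-fold and was lost when libraries were centred (0.94).

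OAS2 (chr12:113416274-113426610), the third gene of the chromosome 12 cluster, stood at 1.86 and 1.99 FPKM in the controls, 4.45, 5.25 and 5.05 in ΔE2 and 3.26, 2.56 and 3.90 in ΔSE12313-b. Here ΔE2 was the highest group, without overlap. OAS2 was upregulated by 1.31 ± 0.17 in ΔE2, and the 0.70 ± 0.17 of ΔSE12313-b was under 2-fold (limma, Benjamini-Hochberg adjusted p = 0.00051 and 0.0091). This value depended on the transcript: the longest OAS2 transcript, of 3635 bases in place of 2081, gave log2 ratios of 0.79 and -0.13, so that the ΔE2 call was lost and the direction in ΔSE12313-b turned. OASL (chr12:121458095-121477045), a relative without synthetase activity that aids RIG-I, stood at 1.67 and 1.88 FPKM in the controls, 10.4, 7.96 and 10.5 in ΔE2 and 4.34, 3.12 and 1.33 in ΔSE12313-b. All ΔE2 clones were high, and ΔSE12313-b ran from below the controls to more than the upper control. OASL rose by 2.36 ± 0.41 in ΔE2, the highest of any member there, against 0.55 ± 0.41 for ΔSE12313-b (limma, Benjamini-Hochberg adjusted p = 0.00194 and 0.279). EIF2AK2, which encodes the kinase PKR that halts translation upon double-stranded RNA, ranged only from 14.9 to 18.8 FPKM over the 8 libraries, with log2 changes of 0.15 and 0.12.

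IFIT proteins bind viral RNA and keep it from the ribosome, and their genes lie side by side on chromosome 10. IFIT2 (chr10:91061706-91069033) stood at 1.35 and 1.76 FPKM in the controls, 6.57, 5.65 and 8.42 in ΔE2 and 4.81, 4.64 and 2.83 in ΔSE12313-b. The 3 groups were separate, with ΔE2 on top. IFIT2 was upregulated by 2.07 ± 0.26 in ΔE2 and 1.31 ± 0.26 in ΔSE12313-b (limma, Benjamini-Hochberg adjusted p = 0.000389 and 0.00315). IFIT3 (chr10:91092236-91100725), the partner that stabilises IFIT1, stood at 5.27 and 4.70 FPKM in the controls, 13.9, 15.0 and 15.8 in ΔE2 and 13.8, 12.2 and 11.2 in ΔSE12313-b. It was the most even of the IFIT genes between clones, at 1.56 ± 0.11 in ΔE2 and 1.30 ± 0.11 in ΔSE12313-b (limma, Benjamini-Hochberg adjusted p = 2.01e-05 and 4.11e-05).

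IFIT1 (chr10:91152303-91166244), the best known reporter gene of an interferon response, was low in the controls at 0.648 and 0.890 FPKM (36 and 47 reads). It stood at 3.42, 2.82 and 3.79 FPKM in ΔE2 and 1.95, 1.99 and 1.007 in ΔSE12313-b, again with separate groups. IFIT1 was upregulated by 1.99 ± 0.30 in ΔE2, while the 0.96 ± 0.30 in ΔSE12313-b fell just short of 2-fold (limma, Benjamini-Hochberg adjusted p = 0.000957 and 0.0246) and passed in 6 of 20 alternative analyses. IFIT5, the fourth family member, did not pass in either deletion, with controls at 2.15 and 1.89 FPKM and clones between 2.36 and 3.33.

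ISG15, a ubiquitin-like protein that is attached to other proteins, and USP18, the protease that removes it and also quiets the interferon receptor, were upregulated in both deletions. ISG15 (chr1:948847-949919) stood at 9.99 and 9.64 FPKM in the controls, 24.4, 19.8 and 25.1 in ΔE2 and 24.0, 23.2 and 14.5 in ΔSE12313-b. The clones did not overlap the controls, and ΔSE12313-b clone 3 was the lowest clone. Its changes were 1.22 ± 0.22 and 1.02 ± 0.22 (limma, Benjamini-Hochberg adjusted p = 0.00214 and 0.00424). The second was at the edge of 2-fold: it became 0.89, 0.92 and 0.9985 without ΔSE12313-b clone 1, ΔSE12313-b clone 2 and control 2, under the threshold each time, and 0.74 when libraries were centred. USP18 (chr22:18632758-18660162) stood at 2.96 and 2.71 FPKM in the controls, 9.89, 6.30 and 11.3 in ΔE2 and 11.8, 8.18 and 8.53 in ΔSE12313-b. USP18 was upregulated by 1.62 ± 0.25 and 1.69 ± 0.25 (limma, Benjamini-Hochberg adjusted p = 0.00114 and 0.000749), and ΔE2 differed from ΔSE12313-b by -0.07 (95% interval -0.60 to 0.45). UBE2L6, the enzyme that passes ISG15 on, did not pass (59.4 and 61.1 FPKM in the controls, 47.4 to 71.9 in the clones), nor did the ligase-like HERC6 (2.26 and 2.81 in the controls, 3.33 to 3.90 in the clones).

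SAMD9 and SAMD9L are neighbouring genes on chromosome 7 whose large proteins restrict poxviruses and slow cell growth. SAMD9 (chr7:92728826-92747336) stood at 6.04 and 6.38 FPKM in the controls, 28.1, 21.8 and 30.9 in ΔE2 and 18.1, 18.1 and 14.4 in ΔSE12313-b. The order control, ΔSE12313-b, ΔE2 held without overlap. SAMD9 was upregulated by 2.09 ± 0.16 and 1.42 ± 0.16 (limma, Benjamini-Hochberg adjusted p = 3.31e-05 and 0.000174). SAMD9L (chr7:92759367-92777712) stood at 3.99 and 3.50 FPKM in the controls, 6.94, 9.62 and 8.34 in ΔE2 and 6.12, 6.32 and 7.35 in ΔSE12313-b. All clones were above the controls, with a change of 1.12 ± 0.15 in ΔE2, which was 0.96 with centred libraries, and 0.80 ± 0.15 in ΔSE12313-b, under 2-fold (limma, Benjamini-Hochberg adjusted p = 0.00056 and 0.00254).

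**Figure D2:**
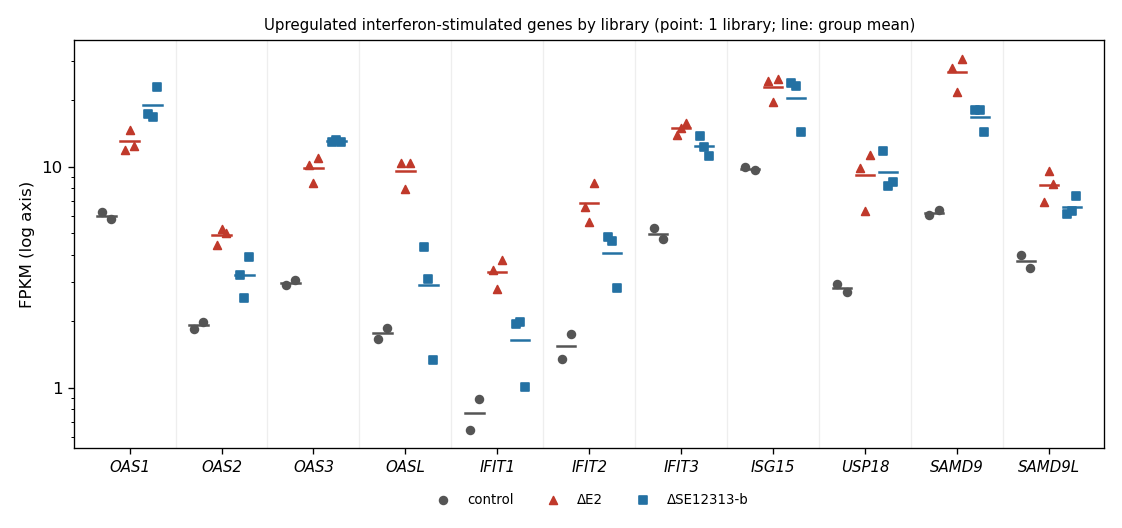
FPKM (log axis) of the 11 upregulated members in each library, with circles for the 2 control libraries, triangles for the 3 ΔE2 clones and squares for the 3 ΔSE12313-b clones. Short lines are group means. The ΔE2 clones lie above both controls for every gene shown, while the lowest ΔSE12313-b clone reaches the controls for OASL (1.33 FPKM against 1.67 and 1.88).

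Of the transcription factors of the pathway, IRF9 and IRF7 were downregulated. IRF9 (chr14:24630422-24635774), the DNA-binding part of ISGF3, stood at 21.5 and 21.7 FPKM in the controls, 5.06, 7.50 and 5.24 in ΔE2 and 5.71, 6.48 and 9.74 in ΔSE12313-b. The controls were nearly equal and every clone was less than both. IRF9 was lower by 1.87 ± 0.24 in ΔE2 and 1.59 ± 0.24 in ΔSE12313-b on the log2 scale, which is 3.65-fold and 3.002-fold (limma, Benjamini-Hochberg adjusted p = 0.00044 and 0.000819). IRF7 (chr11:612555-615999), the factor that induces interferon genes and amplifies the response, stood at 8.92 and 8.14 FPKM in the controls, 2.68, 3.15 and 3.84 in ΔE2 and 5.11, 4.397 and 4.47 in ΔSE12313-b. The 3 groups were separate and ΔE2 was the lowest. IRF7 was downregulated in ΔE2 (log2 change -1.39 ± 0.15), and in ΔSE12313-b its log2 change of -0.86 ± 0.15 was under 2-fold and passed only with centred or quantile-normalised libraries (-1.15 and -1.17) (limma, Benjamini-Hochberg adjusted p = 0.000205 and 0.00189). STAT2, the ISGF3 subunit that carries the activation domain, was at 13.9 and 13.6 FPKM in the controls and 9.42 to 11.0 in the clones, with log2 changes of -0.45 and -0.35, and IRF1, a factor more tied to interferon gamma, ranged from 6.71 to 10.7 FPKM over all libraries.

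BST2 (chr19:17513748-17516457), also called tetherin because it holds budding virus at the cell surface, showed the largest drop of any called member. It stood at 4.98 and 4.18 FPKM in the controls, 0.879, 1.04 and 0.435 in ΔE2 and 0.553, 0.600 and 0.684 in ΔSE12313-b, from 64 and 51 reads in the controls and 6 to 18 reads in the clones. This amounted to a log2 change of -2.47 ± 0.32 with E2 deleted and of -2.71 ± 0.32 with SE12313-b deleted (limma, Benjamini-Hochberg adjusted p = 0.000432 and 0.000211). Of the other membrane proteins, IFITM1, IFITM2 and IFITM3, which block virus entry and were among the most abundant members, did not pass in either deletion: IFITM3, the most abundant member, stood at 272 and 254 FPKM in the controls and 182 to 312 in the clones, and the log2 changes of the 3 genes lay between -0.41 and 0.34. These genes are close in sequence, and reads may have been divided between them.

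IFI44L (chr1:79086067-79111830), a gene of the type I interferon signature in blood, stood at 1.85 and 1.63 FPKM in the controls, 0.169, 0.387 and 0.20 in ΔE2 and 0.296, 0.608 and 0.599 in ΔSE12313-b. All clones were far under the controls, with a log2 change of -2.43 ± 0.39 for ΔE2 and -1.66 ± 0.39 for ΔSE12313-b (limma, Benjamini-Hochberg adjusted p = 0.00121 and 0.00669). Its neighbour IFI44, which starts just beyond its end in the same orientation, lay on the other side of 0: it stood at 10.5 and 11.3 FPKM in the controls, 20.6, 18.1 and 21.9 in ΔE2 and 15.0, 14.3 and 12.2 in ΔSE12313-b. Its log2 changes of 0.88 ± 0.12 and 0.33 ± 0.12 were under 2-fold (limma, Benjamini-Hochberg adjusted p = 0.000524 and 0.0401).

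GBP2 (chr1:89571816-89591842), a guanylate-binding GTPase that attacks the vacuoles of intracellular pathogens, stood at 3.79 and 3.52 FPKM in the controls, 0.966, 1.87 and 0.767 in ΔE2 and 1.96, 1.66 and 5.81 in ΔSE12313-b. The ΔE2 clones were lower than the controls, and the ΔSE12313-b clones ranged from well below them to above them. GBP2 changed by -1.62 ± 0.53 in ΔE2, and by -0.43 ± 0.53 in ΔSE12313-b, which did not pass (limma, Benjamini-Hochberg adjusted p = 0.0336 and 0.509). The ΔE2 call was lost without control 1, control 2, ΔE2 clone 1 or ΔE2 clone 3 (log2 change -1.57, -1.67, -1.52 and -1.37; limma, Benjamini-Hochberg adjusted p = 0.14, 0.12, 0.0849 and 0.0982). The related GBP1, next to it on chromosome 1, did not pass, with 4.23 and 3.85 FPKM in the controls, 4.31 to 5.42 in ΔE2 and 6.42 to 8.58 in ΔSE12313-b.

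ISG20 (chr15:89178868-89199575), an exonuclease that degrades viral RNA, stood at 39.1 and 40.2 FPKM in the controls, 15.5, 20.5 and 20.2 in ΔE2 and 20.4, 21.1 and 29.2 in ΔSE12313-b. All clones were lower than the controls. It was downregulated in ΔE2 (log2 change -1.09 ± 0.18), a call that was lost without ΔE2 clone 1 (-0.96), and the -0.77 ± 0.18 of ΔSE12313-b was under 2-fold (limma, Benjamini-Hochberg adjusted p = 0.00136 and 0.00645), although it passed with centred or quantile-normalised libraries (-1.06 and -1.25). DDX60 (chr4:169137442-169239958), a helicase that assists RIG-I, was the only member called in ΔSE12313-b and not in ΔE2. It stood at 11.7 and 10.1 FPKM in the controls, 6.29, 7.07 and 6.84 in ΔE2 and 4.14, 3.82 and 4.83 in ΔSE12313-b, with all 3 groups apart. DDX60 was downregulated in ΔSE12313-b (log2 change -1.34 ± 0.12), while the -0.69 ± 0.12 of ΔE2 was under 2-fold (limma, Benjamini-Hochberg adjusted p = 6.24e-05 and 0.00231).

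**Figure D3:**
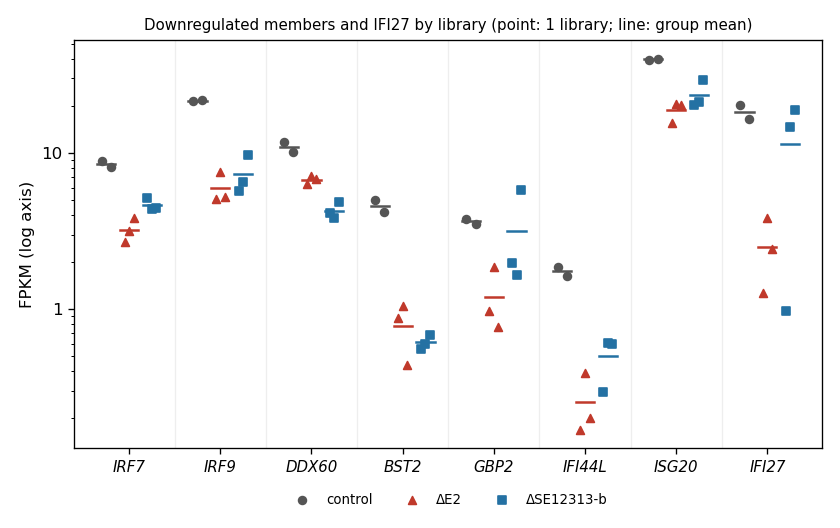
FPKM (log axis) of the 7 downregulated members and of IFI27 in each library, drawn as circles for the controls, triangles for ΔE2 and squares for ΔSE12313-b, with short lines at group means. BST2 and IFI44L sit far below the controls in all 6 clones, whereas GBP2 and IFI27 differ widely between the ΔSE12313-b clones (1.66 to 5.81 FPKM and 0.968 to 18.7 FPKM).

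IFI27, a small membrane protein that is among the most strongly interferon-induced transcripts in many tissues, had the lowest point estimate in ΔE2 and was not called. It stood at 20.2 and 16.5 FPKM in the controls and at 1.27, 3.84 and 2.41 in ΔE2, while ΔSE12313-b clone 1 had 0.968 FPKM and clones 2 and 3 had 14.6 and 18.7. The ΔSE12313-b clones thus fell into a low clone and a pair near the controls, with an SD of 2.29 on the log2 scale. In the fit over all 3 groups, which share 1 estimate of spread, the ΔE2 change of -2.94 ± 1.12 did not pass (limma, Benjamini-Hochberg adjusted p = 0.0557). It passed in 9 of 20 alternative analyses, among them the fit of ΔE2 and control alone (limma, Benjamini-Hochberg adjusted p = 0.00368) and the fit without ΔSE12313-b clone 1 (0.00125), and in ΔSE12313-b the change of -1.46 ± 1.12 had an adjusted p of 0.29 by limma with Benjamini-Hochberg adjustment.

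The 21 tested members called in neither deletion were more abundant in the controls than the called ones, with a median control level of 13.8 FPKM (2.02 to 263), against 2.99 FPKM (0.769 to 9.82) for the 11 upregulated and 8.53 FPKM (1.74 to 39.6) for the 7 downregulated members. The RNA sensors RIG-I (DDX58) and MDA5 (IFIH1) were among them. DDX58 stood at 3.66 and 3.97 FPKM in the controls and 5.83 to 8.17 in the 6 clones, above the controls in each, and its log2 change of 0.97 ± 0.13 in ΔE2 was just under 2-fold (limma, Benjamini-Hochberg adjusted p = 0.000613). It passed without control 2 (1.03) or without ΔE2 clone 1 (1.08). IFIH1 stood at 2.71 and 4.10 FPKM in the controls and 2.11 to 2.71 in the clones, so that the lower control reached the upper clones. The DNA sensor IFI16 was an abundant member, at 57.4 and 59.4 FPKM in the controls, 60.7 to 70.3 in ΔE2 and 79.6 to 92.2 in ΔSE12313-b.

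None of the 4 TRIM and PARP genes passed in either deletion. TRIM21, the cytosolic antibody receptor, stood at 12.2 and 12.1 FPKM in the controls and 16.3 to 21.6 in the clones, with log2 changes of 0.53 and 0.67 that were under 2-fold (limma, Benjamini-Hochberg adjusted p = 0.0027 and 0.000674). TRIM22, a restriction factor of retroviruses, stood at 30.5 and 30.2 FPKM in the controls and 22.5 to 29.7 in the clones. PARP9 stood at 5.64 and 5.80 FPKM in the controls, 6.64 to 7.37 in ΔE2 and 9.16 to 10.5 in ΔSE12313-b, where its log2 change of 0.74 was under 2-fold (limma, Benjamini-Hochberg adjusted p = 0.000331), and PARP14 at 15.5 and 15.4 FPKM in the controls and 11.7 to 15.2 in the clones. The mitochondrial IFI6 stood at 14.5 and 13.2 FPKM in the controls, 9.75 to 11.1 in ΔE2 and 11.9 to 23.8 in ΔSE12313-b, and IFI35, which forms a complex with NMI, at 6.19 and 5.23 and 8.15 to 10.5 in the clones.

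The remaining 6 members did not reach the level filter and are given as reads per library, with no test across genes in the filtered set. XAF1, which promotes cell death, had 10 and 23 reads in the controls, 1, 1 and 0 in ΔE2 and 1, 0 and 0 in ΔSE12313-b. The control mean was taken as observed and 3 reads per library as the floor of the clones. XAF1 was then at least 7.32-fold lower in ΔE2 and at least 6.999-fold lower in ΔSE12313-b. These floors allow for counting error in the clones only, not in the controls. The controls differed, and without control 2, a setting chosen after seeing the data, the bounds became 4.28-fold and 4.09-fold. HERC5, the main ISG15 ligase, had 4 and 4 reads in the controls, 30, 26 and 20 in ΔE2 and 12, 5 and 7 in ΔSE12313-b. Without the filter on low values HERC5 passed upward in ΔE2 (1.48 ± 0.23; limma, Benjamini-Hochberg adjusted p = 0.00183) and XAF1 downward in both deletions (limma, Benjamini-Hochberg adjusted p = 0.000983 and 0.000678). HERC5 was then also higher in ΔE2 than in ΔSE12313-b in the direct comparison, by 1.15 ± 0.21 (limma, Benjamini-Hochberg adjusted p = 0.00966).

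The classical antiviral genes MX1, MX2 and RSAD2 were barely detectable. MX1 had 8 and 9 reads in the controls, 22, 15 and 10 in ΔE2 and 13, 11 and 11 in ΔSE12313-b, which overlapped once divided by library size. MX2 had 4 and 7 reads in the controls and 0 to 2 in the clones. With the control mean taken as observed, the floor put MX2 2.43-fold lower in ΔE2 and 2.32-fold lower in ΔSE12313-b. These values depended on the controls and became 1.71-fold and 1.64-fold without control 2. Without the filter MX2 passed downward in ΔE2 (log2 change -1.03 ± 0.24) and was under 2-fold in ΔSE12313-b at -0.94 (limma, Benjamini-Hochberg adjusted p = 0.0108 and 0.0136). RSAD2, which encodes viperin, had 4 and 2 reads in the controls, 5, 16 and 12 in ΔE2 and 7, 1 and 0 in ΔSE12313-b. DHX58, the RIG-I relative LGP2, had 5 reads in each control and 1 to 4 in the clones. With the control mean taken as observed, the floor put it 2.09-fold lower in ΔSE12313-b. Counting error in the controls is not covered by this value, which is therefore not a firm minimum. In the fit without the filter DHX58 was under 2-fold in ΔSE12313-b, with a log2 change of -0.86 ± 0.20 (limma, Benjamini-Hochberg adjusted p = 0.00987). At these depths smaller differences of these genes were not detectable.

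Whether the deletions differed from each other was tested directly, ΔE2 against ΔSE12313-b, a comparison that does not use the controls for its difference. Among the 39 members 2 were higher in ΔE2 (5.13%, against 1.6% of all tested genes). None was lower (against 2.63% of all tested genes), and 4.23% of all tested genes were called in either direction. OASL was higher in ΔE2 by 1.82 ± 0.37 (3.52-fold) and IFIT1 by 1.03 ± 0.27 (2.04-fold) (limma, Benjamini-Hochberg adjusted p = 0.0102 and 0.0272). The IFIT1 call was lost without ΔE2 clone 1 (1.005; limma, Benjamini-Hochberg adjusted p = 0.0796), without ΔE2 clone 3 (0.93) and without ΔSE12313-b clone 3 (0.73), which left OASL as the sole call each time. Without ΔSE12313-b clone 1 IFI27 passed as lower in ΔE2 (log2 difference -2.80), and without clone 2 IFI6 did (-1.05) (limma, Benjamini-Hochberg adjusted p = 0.00829 and 0.00341).

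In total 15 members had an adjusted p below 0.05 in this direct comparison by limma with Benjamini-Hochberg adjustment (38.5%, against 26% of all tested genes), most of them under 2-fold. SAMD9, IFIT2, DDX60, OAS2 and IFI44 were higher in ΔE2, by 0.66, 0.75, 0.65, 0.60 and 0.55 on the log2 scale. OAS1, OAS3, IRF7, GBP1, IFI6, PARP9, IFI16 and IFITM1 were lower in ΔE2, with log2 differences from -0.29 (IFITM1) to -0.77 (IFI6). Within the OAS cluster on chromosome 12, OAS1 and OAS3 were therefore higher in ΔSE12313-b, and OAS2 and the more distant OASL higher in ΔE2, with the transcript dependence of OAS2 given above. IRF9 and BST2 differed by -0.28 (95% interval -0.78 to 0.22) and 0.25 (-0.42 to 0.91).

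**Figure D4:**
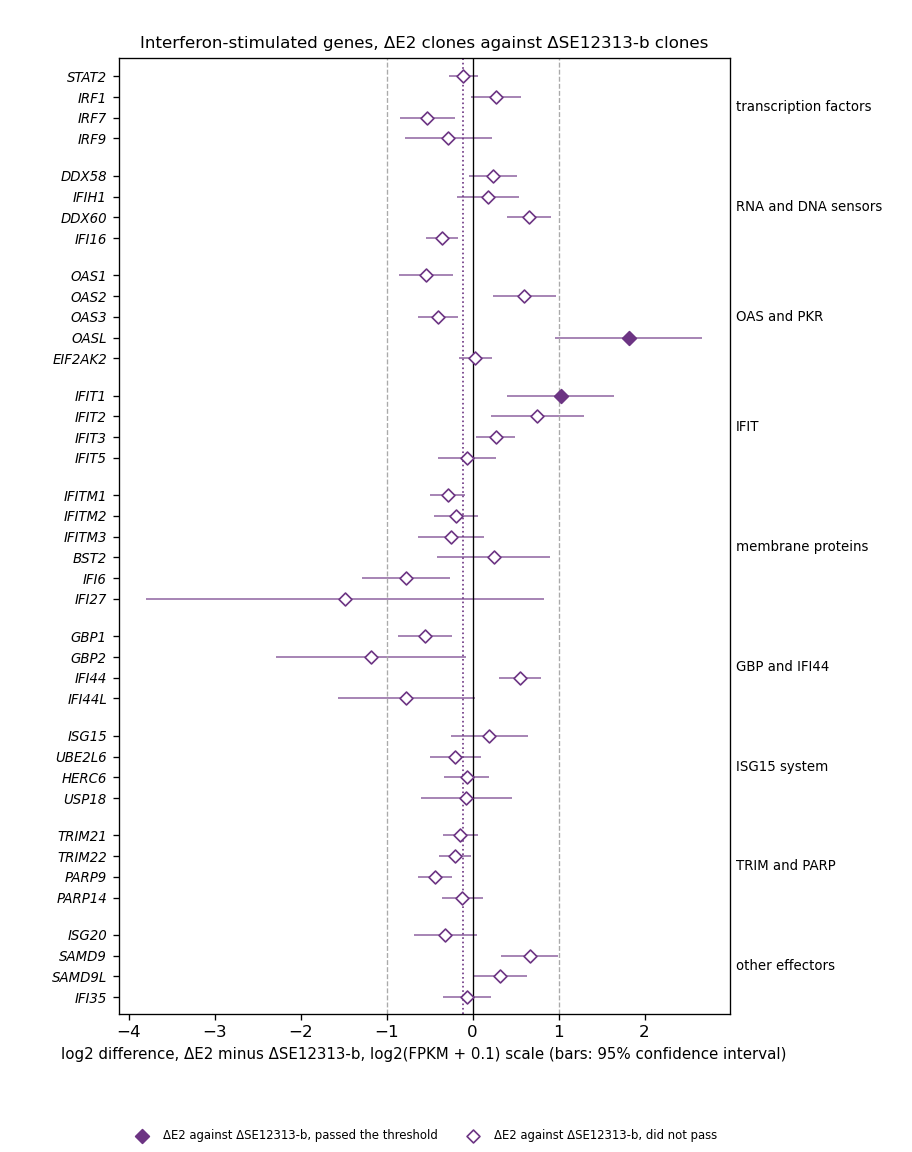
Log2 difference, ΔE2 minus ΔSE12313-b, of the 39 tested members on the log2(FPKM + 0.1) scale, grouped by role, with 95% confidence intervals. Filled diamonds passed the threshold (OASL at 1.82 and IFIT1 at 1.03), the dotted line is the median of all tested genes (-0.11), and IFI27 has the widest interval.

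Clones of the same deletion had a higher median SD than the pair of controls. The SD of the controls rests on 2 libraries and that of each deletion on 3. Whether the controls were separate cultures is not stated, so the SDs are not fully comparable. Over the 39 members the median SD on the log2 scale was 0.074 for the controls, 0.162 for ΔE2 and 0.169 for ΔSE12313-b. The widest spread among ΔE2 clones was in IFI27 (0.766), GBP2 (0.616) and BST2 (0.577), and in ΔSE12313-b in IFI27 (2.29), GBP2 (0.951) and OASL (0.841). Of the 11 upregulated members ΔSE12313-b clone 3 was the lowest of its group in 7 (OAS3, OASL, IFIT1, IFIT2, IFIT3, ISG15 and SAMD9) and the highest in 3 (OAS1, OAS2 and SAMD9L). Of the 7 downregulated members it was the highest in 5 (IRF9, DDX60, BST2, GBP2 and ISG20). Without this clone 9 members in place of 7 were upregulated in ΔSE12313-b, with OASL (1.02) and IFIT1 (1.27) added.

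The surroundings of the called members were examined next. Neighbours were the tested protein-coding genes within 1 Mb, leaving out members and listed pathway genes. Those of IRF9 (40 genes) had median log2 changes of -0.05 in ΔE2 and 0.11 in ΔSE12313-b. Medians were 0.16 and 0.28 near OAS1, OAS2 and OAS3 (15 genes), and 0.46 and 0.61 near USP18 (17 genes). They were 0.20 and 0.54 near OASL (28 genes), and 0.15 and 0.61 near IFIT1, IFIT2 and IFIT3 (6 genes). For ISG15 (29 genes), SAMD9 (13 genes) and SAMD9L (12 genes) they were -0.12 and 0.36, 0.11 and 0.15, and 0.09 and 0.05. Those near the downregulated IRF7 (32 genes), GBP2 (8 genes) and IFI44L (6 genes) were 0.16 and 0.51, 0.36 and 0.56, and 0.47 and 0.335. Near the downregulated ISG20 the 11 neighbours had medians of 0.76 and 0.66, opposite to ISG20. Near BST2 (42 genes) the medians were -0.29 and -0.39, and near DDX60 (5 genes) 0.07 and -0.64, so that in ΔSE12313-b the surroundings of DDX60 were lower as well, and the part of this in its call was not tested. The ISRE core was present in 6 of the 11 upregulated members (54.5%), 3 of the 7 downregulated members (42.9%) and 11 of the 21 others that were tested (52.4%). The motif TTCNNNGAA, the core of the gamma-activated site, which can overlap the ISRE letters in part, was present in 1 upregulated member (9.09%), 4 downregulated members (57.1%) and 5 of the 21 others that were tested (23.8%), and in 10 of all 45 members (22.2%), against 7.3% of all windows. No match says only that these letters are not in the window, and these counts rest on few genes.

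The ligands of the pathway were at or near 0. Of 21 interferon genes of types I, II and III, 19 were at 0 in every library, IFNE had 4 and 6 reads in the controls and 0 to 3 in the clones, and IFNL1 had 1 read in 1 control and in 1 ΔE2 clone. The type I receptor chains and their kinases were expressed in all 8 libraries, and none passed the 2-fold threshold. IFNAR1 stood at 7.41 and 8.57 FPKM in the controls and 10.9 to 12.9 in the clones, IFNAR2 at 5.35 and 5.68 and 6.31 to 7.41, JAK1 at 51.0 and 49.5 and 70.6 to 115, and TYK2 at 10.1 and 9.27 and 13.9 to 18.1. Of the 10 tested receptor and signalling genes the interferon gamma receptor chain IFNGR1 alone was called, downregulated in ΔSE12313-b with a log2 change of -1.29 ± 0.12 (6.64 and 7.34 FPKM in the controls, 2.62 to 2.97 in these clones), with -0.72 in ΔE2 (limma, Benjamini-Hochberg adjusted p = 5.42e-05 and 0.00133). Its partner IFNGR2 stood at 19.3 and 19.2 FPKM in the controls and 12.3 to 19.5 in the clones, JAK2 at 2.58 in both controls and 1.92 to 2.52 in the clones, STAT3 at 15.7 and 14.9 and 17.3 to 23.2, and IL10RB at 6.38 and 6.92 and 6.76 to 10.1. None of these passed, and IFNLR1, the chain of the type III receptor, was at 0.

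Among 13 tested genes that act upstream of interferon production, IKBKE and TLR3 passed. IKBKE, the kinase IKK epsilon that phosphorylates IRF3 and IRF7, stood at 1.77 and 2.16 FPKM in the controls, 3.97 to 5.14 in ΔE2 and 5.94 to 7.22 in ΔSE12313-b, with log2 changes of 1.16 ± 0.15 and 1.66 ± 0.15 (limma, Benjamini-Hochberg adjusted p = 0.00047 and 5.83e-05). TLR3, the endosomal receptor of double-stranded RNA, stood at 2.15 and 2.32 FPKM in the controls, 4.33 to 5.91 in ΔE2 and 1.51 to 2.47 in ΔSE12313-b, and was upregulated in ΔE2 only, by 1.09 ± 0.23, with a direct difference of 1.39 ± 0.20 between the deletions (limma, Benjamini-Hochberg adjusted p = 0.00481 and 0.00291). Of 4 tested negative regulators, SOCS3 was upregulated in both deletions, from 1.67 and 1.97 FPKM in the controls to 2.58 to 5.46 in ΔE2 and 2.79 to 6.19 in ΔSE12313-b (log2 change 1.11 and 1.21). SOCS1, which blocks JAK kinases, was downregulated in ΔE2 (2.73 and 2.39 FPKM in the controls, 0.626 to 1.30 in ΔE2, log2 change -1.27), where the direct difference from ΔSE12313-b was -1.16 ± 0.25 (limma, Benjamini-Hochberg adjusted p = 0.0129).

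A wider list of 62 other interferon-stimulated genes, of which 49 were tested, held more downregulated than upregulated genes, whereas the members held more upregulated ones, except in ΔSE12313-b with centred libraries (6 and 6). In ΔE2, 3 were upregulated (6.12%, against 11.2% of all tested genes) and 9 downregulated (18.4%, against 8.36%). In ΔSE12313-b, 6 were upregulated (12.2%, against 14.7%) and 9 downregulated (18.4%, against 7.83%), and the median log2 changes of the list were -0.07 and 0.10. Its largest changes upward were SLFN12 (1.72), SLFN11 (1.53) and SAMHD1 (1.17) in ΔE2 and SLFN11 (1.40), SAMHD1 (1.36) and IFI30 (1.29) in ΔSE12313-b. Downward, the largest included SLFN5 (-2.56) and HLA-B (-2.45) in ΔE2 and SLFN5 (-2.36), HLA-B (-1.99) and GBP4 (-1.88) in ΔSE12313-b. The Schlafen genes SLFN5 and SLFN11, both restriction factors, thus lay on opposite sides: SLFN5 fell from 21.0 and 22.9 FPKM in the controls to between 2.62 and 5.31 in the clones, while SLFN11 rose from 3.12 and 2.84 FPKM to between 7.10 and 9.36. The class I genes HLA-B, HLA-C and HLA-F, which present peptides to T cells, were downregulated in both deletions, with reads possibly divided between these similar genes.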

How the data were processed

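RNA was sequenced by the study from 8 EA.hy926 libraries (2 control, 3 ΔE2, 3 ΔSE12313-b) as ribosome-depleted, strand-marking, single-end libraries. Per the submitters' processing notes and the study's methods, reads were trimmed with Trim Galore 0.4.4 and mapped to GRCh37 with STAR 2.5.4b. The FPKM values were deposited by the authors as 1 table of 65572 RefSeq transcripts with a column for each library. featureCounts is also named, for counts over another annotation, and the tool that made the FPKM table and its use of strand are not given in the sources used here, so that overlapping genes may share reads. No kept transcript of a member overlapped another symbol in the table, and for IFI44 and XAF1 the kept transcript is annotated as non-coding, with coding transcripts of similar values.

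Of these, 42 transcripts with no gene name (0.056 to 0.0758% of reads) were left out, and the transcript with the highest mean was kept for each of 27945 symbols. Whole reads were recovered from the FPKM steps (100% of checked values within 0.1 read of a whole number). Genes with at least 0.5 FPKM in at least 2 libraries were fitted with limma 3.58.1 (R 4.3.3) on log2(FPKM + 0.1), a scale that understates the change of low genes, in a 3-group model with a variance trend, two-sided, with Benjamini-Hochberg adjustment over 13789 genes. Calls needed an adjusted p below 0.05 and at least 2-fold. The fit was tried on simulated counts with the same spread setting for every gene and changes in few genes, in ΔE2 only. That setting does not cover the unequal spread of clones or the many changes seen here. The deposited values are FPKM, and the study's count test was not run on the recovered reads. An alternative was limma voom on those reads. The control and clone libraries were grouped by their titles.

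The members and gene lists were chosen with earlier results of these data known. Members called in a deletion are given in every library, other members by range, and of the wider pathway every detectable ligand, receptor, kinase and STAT, the called sensing and inhibitor genes and the 3 largest changes in each direction of the wider ISG list. A few genes of these lists are not reported here. Alternatives changed the pseudocount, the filter, the scaling, the transcript kept, the variance model, the libraries in the fit and the thresholds. Motifs were matched in the GRCh37 genome around the starts given in the table, of which 11432 of 27945 equalled a GENCODE start.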

Additional observations from a re-analysis of the deposited data

Results flagged for a closer look

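The 2 members whose effects differed between the deletions by the direct test at the same threshold are listed here. OASL was higher in ΔE2 than in ΔSE12313-b by 1.815 on the log2(FPKM + 0.1) scale, and all 3 ΔE2 clones (7.96 to 10.5 FPKM) were above all 3 ΔSE12313-b clones (1.33 to 4.34 FPKM). IFIT1 was higher in ΔE2 by 1.026, with 2.82 to 3.79 FPKM against 1.007 to 1.99 FPKM. In both genes ΔSE12313-b clone 3 was the lowest of the 6 clones, and without it the differences were 1.35 and 0.73, of which OASL still passed the threshold.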

How the results depend on the processing

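Each of the 30 calls of members was repeated under the alternatives. Of the resulting values 567 kept their direction and passed the threshold, 31 kept their direction and did not pass, and 0 turned. In all, 18 calls passed under every alternative and 12 were lost under at least 1. In ΔE2 those lost were OAS1, OAS2, GBP2, ISG15, ISG20 and SAMD9L. In ΔSE12313-b they were IFIT2, IFIT3, IFI44L and ISG15, and in the direct comparison OASL and IFIT1. The calls of IFIT2 (0.97), IFIT3 (0.9992) and IFI44L (-0.87) in ΔSE12313-b were each lost under 1 alternative, which left them under 2-fold. The same held for ISG15 in ΔE2 (0.98). Counts of called members that moved by more than 1.5 times were these. Members higher in ΔE2 than in ΔSE12313-b numbered 1 with a pseudocount of 1 and 1 with the replicate block, 6 at 1.5-fold and 0 at an adjusted p below 0.01, in place of 2. Members lower in ΔE2 than in ΔSE12313-b numbered 1 at 1.5-fold in place of 0, and members upregulated in ΔSE12313-b numbered 15 at 1.5-fold in place of 7. The cause was not tested beyond the threshold itself. Shares of all tested genes at the changed thresholds were not computed. The counts at those thresholds thus show dependence on the threshold and do not set the members against other genes.

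Leaving out each library in turn gave 11 to 12 upregulated and 4 to 7 downregulated members in ΔE2, 6 to 9 and 4 to 4 in ΔSE12313-b, and 1 to 2 and 0 to 1 in the direct comparison. Where this left a group with 1 library, that library was assumed to vary like the other groups. Across all genes, libraries of the same replicate number did not deviate together (correlations from -0.0804 to 0.107, against -0.0754 to 0.137 for different numbers). With 2 or 3 libraries per group this check cannot exclude a pairing that touches only some genes. With a replicate block the calls over all genes numbered 2530, 2962 and 523 in place of 2697, 3112 and 583. Those of members were 11 and 6 in ΔE2, 8 and 4 in ΔSE12313-b and 1 and 0 directly. Centring moved the calls over all genes from 1544 up and 1153 down to 1170 and 1464 in ΔE2 and from 2032 and 1080 to 1201 and 1570 in ΔSE12313-b. The study, with its own count test and scaling of library sizes, likewise reported more genes down than up in each deletion. With 2 control libraries, and under 70 reads per library for BST2, small differences were not detectable.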
